A study of Mus musculus with 54 samples.

Results

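Hypoxia-inducible factor (HIF) subunits, their oxygen sensors and their targets were followed in late proximal tubules of mouse kidney. The genes are Hif1a, Epas1, Egln1, Egln3, Vegfa, Adm, Bnip3, Pdk1, Ankrd37 and P4ha1, taken by gene symbol from a deposited expression table, so 10 of its 19068 genes. The tubules were negative for the glucose transporter SGLT2 and positive for the lectin LTL, which marks the proximal tubule, and 70 to 80 of them were laser-captured for each sample. All mice were male, of the DBA strain and 14 weeks old. They were either nondiabetic (Ins2+/+) or diabetic through the Akita allele (Ins2 Akita/+), and either wild type (Sglt1+/+) or knockout (Sglt1-/-) for the glucose transporter SGLT1. Each of these 4 genotypes received vehicle or the SGLT2 inhibitor dapagliflozin (10 mg/kg of diet) for 2 weeks, and Akita wild-type mice also received the GLP-1 receptor agonist semaglutide (3 nmol/kg body weight per day). Of the 9 groups, 7 had 6 libraries. Akita wild type with dapagliflozin and Akita wild type with semaglutide had 5 each, so 52 libraries were compared. The labels name no tissue-specific driver for the Sglt1 deletion. The labels do not say that each library came from an animal of its own, so p-values measure the spread between these libraries.

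HIF is a transcription factor made of an oxygen-regulated alpha subunit, encoded by Hif1a or Epas1, and a stable beta subunit. In well-oxygenated cells the prolyl hydroxylases encoded by Egln1 and Egln3 mark the alpha subunit for destruction by the von Hippel-Lindau complex. In hypoxia the alpha subunit persists and induces genes for blood vessel growth, glycolysis, removal of mitochondria and restraint of pyruvate oxidation. The late proximal tubule (S3) lies in the poorly oxygenated outer medulla, and glucose that escapes SGLT2 upstream is taken up there through SGLT1. The comparison with dapagliflozin asks whether moving glucose uptake to S3 leaves a mark on HIF target transcripts, and the Sglt1 knockout removes the transporter through which that uptake would run. Hif1a and Epas1 are controlled largely through protein stability, which RNA does not show, so the target genes carry most of the readout.

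The S3 marker genes summed to between 2513 and 9054 TPM (transcripts per 1e+06) per library. The Sglt1 gene Slc5a1 had group means of 55.01 to 86.2 TPM in the wild-type groups and 0.776 to 0.828 TPM in the knockout groups. The SGLT2 gene Slc5a2 was still measured in every library, at 3.93 to 205 TPM, although the tubules were chosen as SGLT2-negative. Markers of endothelium summed to 229 to 496 TPM, those of macrophages and dendritic cells to 348 to 1116 TPM, and those of the thick ascending limb to 251 to 2916 TPM. In bulk samples of this kind, fewer cells of a type and less RNA per cell cannot be told apart. Mitochondrial ribosomal RNA took 20.3 to 52.3% of a library.

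HIF binds a short core motif in its target promoters, and stretches around that core are shown to place it in 6 of the targets and sensors followed here. The letters searched were ACGTG and GCGTG on both strands, in RefSeq promoters that reach from 250 bases before to 50 bases after a start site (build GRCm38.p6). The first of these also lies inside the E-box CACGTG. Of the 10 genes, 9 had promoters in the RefSeq table, and Epas1 had no entry. Of their 11 promoters, 9 held the core (81.8%), against 43.8% of all 32851 promoters and 60.5% of the promoters of tested genes. A match is only a run of letters. Each stretch is written 5′ to 3′ on the strand of its gene, ends at or before the start site, and has the core in capitals.
Bnip3: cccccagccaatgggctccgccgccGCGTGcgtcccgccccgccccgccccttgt
Egln3: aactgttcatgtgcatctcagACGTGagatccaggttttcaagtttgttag
Ankrd37: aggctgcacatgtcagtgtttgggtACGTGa
Adm: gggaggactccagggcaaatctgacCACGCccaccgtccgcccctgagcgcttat
Pdk1: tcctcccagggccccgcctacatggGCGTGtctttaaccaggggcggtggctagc
P4ha1: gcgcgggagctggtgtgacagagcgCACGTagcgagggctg
The Bnip3 stretch (chr7:138909512-138909566, minus strand) comes from the promoter with the most matches among these genes, 5. The Egln3 stretch (chr12:54204074-54204124, minus strand) holds the only match of its promoter. The Ankrd37 stretch (chr8:45999851-45999881, minus strand) is 1 of 4 matches in its promoter. The stretches of Adm (chr7:110627578-110627632, plus strand) and Pdk1 (chr2:71873121-71873175, plus strand) each show 1 of 2 matches, and that of P4ha1 (chr10:59323255-59323295, plus strand) shows 1 of 3. In Adm and P4ha1 the core is read on the opposite strand. The Vegfa promoter at the outer end of the gene held no match.

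The 10 genes differed widely in level in S3 tubules. Vegfa, a secreted growth factor for blood vessels (chr17:46016993-46032369, GRCm38, GENCODE), had a mean of 337 ± 69.4 TPM (SD, 52 libraries) and ranked 296th of all genes in the table by mean TPM. Bnip3, a mitochondrial outer membrane protein that targets mitochondria for autophagy (chr7:138890836-138909519), had a mean of 117 ± 29.2 TPM. Both were measured in every library. Epas1 (chr17:86753700-86833410, mean 61.6 ± 14.6 TPM) stood above Hif1a (28.7 ± 4.91 TPM), and the sensor Egln1 (51.02 ± 8.43 TPM) above the sensor Egln3 (17.9 ± 4.52 TPM). P4ha1, a collagen prolyl hydroxylase subunit (chr10:59323296-59373304), had a mean of 46.9 ± 13.8 TPM. Pdk1, a kinase that shuts pyruvate dehydrogenase, was lower at 7.35 ± 3.87 TPM. Ankrd37, an ankyrin-repeat protein, and Adm, the vasodilator peptide adrenomedullin, were near the limit of the data. An antisense gene, Gm28863, overlaps all of Adm (2160 bases), and the antisense gene Gm15283 overlaps 46156 bases of Hif1a. Reads in these overlaps are uncertain in the same way as those in the Bnip3 overlap described below. On their own strand, Hif1a is overlapped by Gm49321 (9878 bases) and Epas1 by AC096777.1 (1379 bases). The use of strand in counting would not separate reads of these overlaps. Ankrd37 had a mean of 2.36 ± 2.28 TPM with 8 libraries listed at 0, and Adm a mean of 1.70 ± 1.49 TPM with 3 libraries at 0. The spread relative to the mean was therefore small for Egln1 (16.5%), Hif1a (17.1%) and Vegfa (20.6%), and large for Adm (87.96%) and Ankrd37 (96.6%).

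Group membership accounted for little of the variation of these genes. On the log2(TPM + 1) scale, 9.37% (Pdk1) to 26.3% (Epas1) of a gene's variance lay between the 9 groups. Across all 15424 genes tested the median was 15.1%, with quartiles of 10.7 and 20.7%. When the groups were put in order of mean TPM, 80 neighbouring pairs of groups resulted for the 10 genes. In 4 of them, 1 each for Epas1, Egln1, Ankrd37 and P4ha1, the gap was larger than the smaller of the 2 groups' SDs. For P4ha1 this was the gap between Akita knockout with vehicle (43.6 TPM) and the group at the bottom, Akita wild type with semaglutide (35.2 TPM). For Hif1a, Egln3, Vegfa, Bnip3, Adm and Pdk1 no neighbours in the order were apart by that much. Ordered means lie close to their neighbours by construction, so small gaps do not show that the groups were alike. The share of such gaps over all tested genes was not computed. Hif1a means ran only from 25.9 TPM (nondiabetic wild type with dapagliflozin) to 30.9 TPM (Akita knockout with dapagliflozin).

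**Figure D1:**
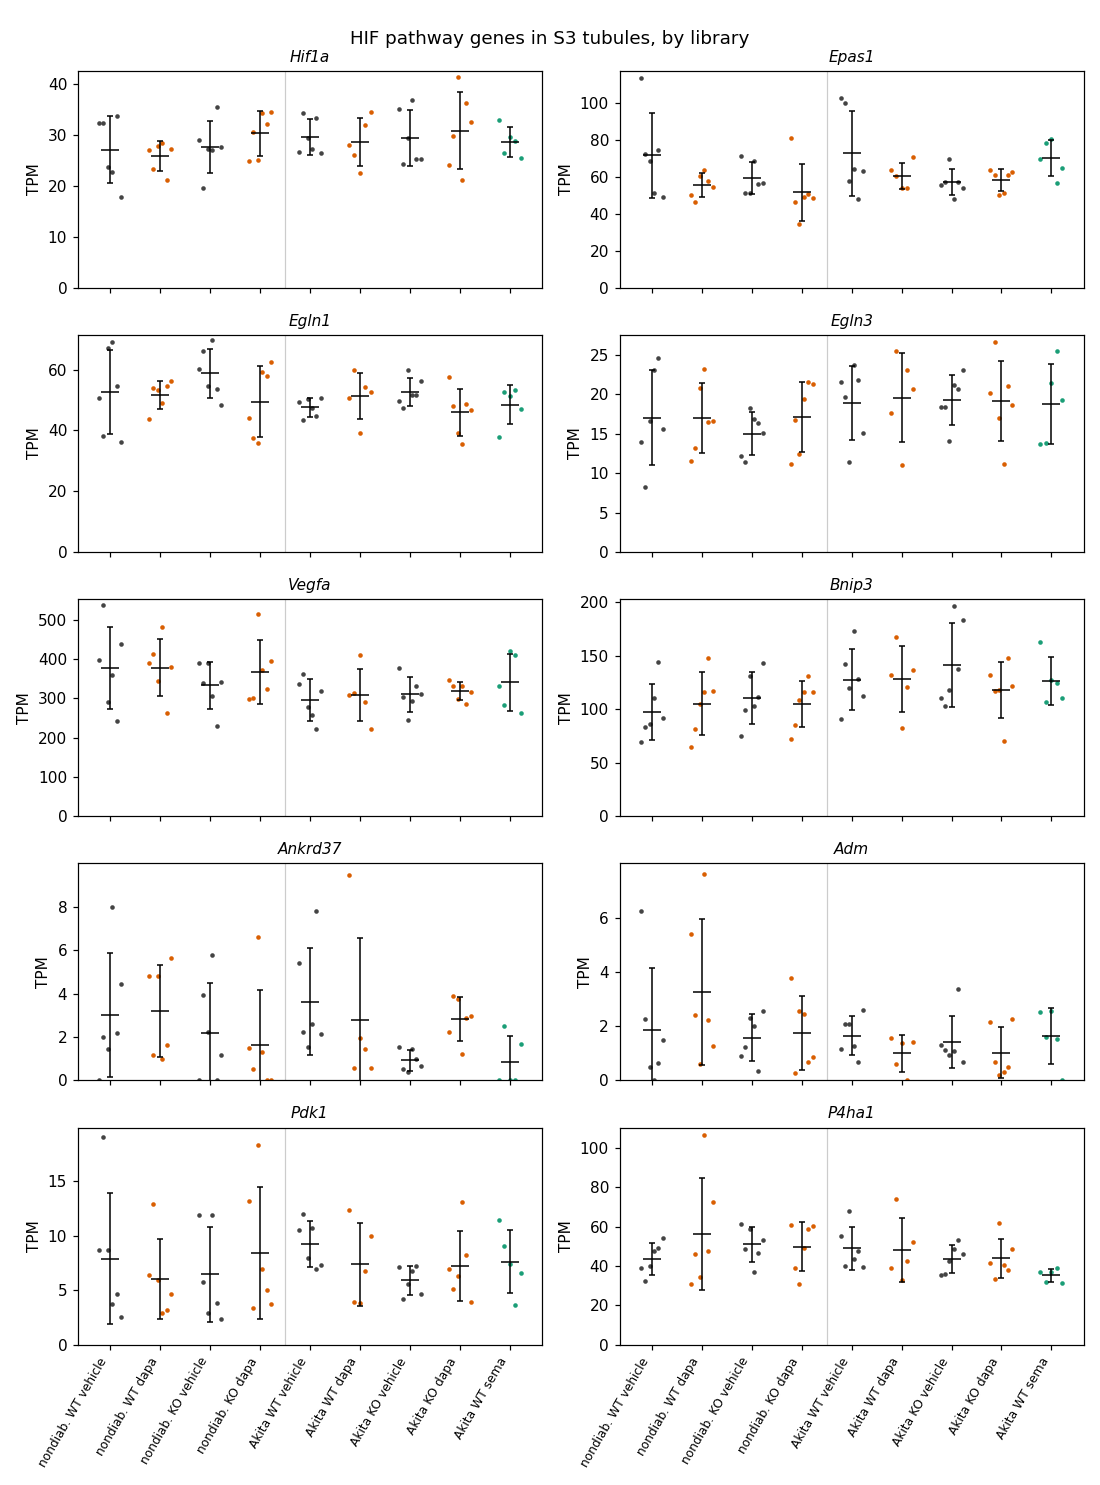
Levels of the 10 HIF pathway genes in TPM (y axis) in each of the 9 groups (x axis); points are libraries, the horizontal bar is the mean and the whiskers are 1 SD (cut off at 0), with vehicle in grey, dapagliflozin in orange and semaglutide in green. The groups overlap for nearly every gene, and Ankrd37 and Adm lie close to 0 with single high libraries such as the 9.47 TPM of Ankrd37.

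None of the 10 genes passed the test for a change with dapagliflozin. In limma fits to log2(TPM + 1), with Benjamini-Hochberg adjustment over all 15424 tested genes, 0 of 10 passed an adjusted p of 0.05 in nondiabetic wild-type, nondiabetic knockout, Akita wild-type or Akita knockout mice, or in the average of the 4. The same rule called 0.00648% of tested genes (1 gene) in nondiabetic wild type, and 0% in nondiabetic knockout, 0% in Akita wild type, 0% in Akita knockout and 0% in the average. Across the whole table, too, almost no gene was called for the drug at this threshold. At an unadjusted p of 0.05, 0 of the 10 genes passed in each of the 4 genotypes, where 7.03%, 4.74%, 2.39% and 3.13% of tested genes did in the order just given. In the average, 1 of the 10 passed, against 4.09% of tested genes. The median log2 change of the 10 genes in the average was 0.0024, and 5 were above and 5 below 0. Over all tested genes that median was -7.7e-05.

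The alpha subunit genes came first in the pathway. In nondiabetic wild-type tubules Epas1 ran from 49.0 to 113 TPM (median 70.55) with vehicle and from 46.4 to 63.6 TPM (median 56.05) with dapagliflozin. In nondiabetic knockout tubules it ran from 51.03 to 70.98 TPM (median 56.6) with vehicle and from 34.3 to 80.7 TPM (median 48.8) with the drug. All 6 treated wild-type libraries lay below the vehicle median, and 5 of 6 treated knockout libraries did so in theirs, but the groups overlapped. In Akita wild type, vehicle libraries held 47.9 to 103 TPM of Epas1 (median 63.6), and the dapagliflozin libraries held 53.7, 54, 60.25, 63.7 and 70.4 TPM. In Akita knockout the vehicle libraries held 48.1 to 69.5 TPM (median 56.3) and the treated ones 49.99 to 63.67 TPM (median 61.03). The averaged log2 change was -0.18 (SE 0.084, 95% interval -0.35 to -0.011), an unadjusted p of 0.0373 and an adjusted p of 0.999 by limma. Epas1 was thus the lowest of the 10 in p for the drug, and it did not pass. Markers of other cells lay on the same side: 11 of 12 endothelial, 9 of 9 stromal and 9 of 10 macrophage and dendritic cell markers were below 0 in the same average, with medians of -0.073, -0.20 and -0.16 and none past the adjusted threshold, and their part in the result was not tested. Without the 3 libraries highest in the score of endothelial, stromal and macrophage markers, all of them nondiabetic and on vehicle, the Epas1 change was -0.12 (adjusted p 0.929 by limma). Hif1a showed an averaged log2 change of 0.024 (95% interval -0.13 to 0.18), an interval of -8.525% to 13.1%.

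The oxygen sensors Egln1 and Egln3 are themselves HIF targets. With the drug, Egln3 changed by 0.046 on the log2 scale on average (95% interval -0.18 to 0.27). In Akita wild type its vehicle libraries held 11.5 to 23.7 TPM (median 20.6). The treated libraries there held 11, 17.6, 20.7, 23.1 and 25.6 TPM, so the drug group spanned the vehicle group. Egln1 changed by -0.091 on average (95% interval -0.23 to 0.052). Its values by genotype were 0.015 in nondiabetic wild type and 0.093 in Akita wild type, and -0.26 and -0.21 in the corresponding knockouts. The difference in drug effect between wild type and knockout was 0.29 for Egln1 (95% interval 0.0044 to 0.58), with an unadjusted p of 0.0467 and an adjusted p of 0.999 by limma. In Akita knockout, Egln1 ran from 47.4 to 60.04 TPM with vehicle and from 35.7 to 57.6 TPM with the drug, and 5 of 6 treated libraries lay below the vehicle median. In Akita wild type it ran from 43.4 to 50.7 TPM with vehicle, and the treated libraries held 39.1, 50.8, 52.5, 54.5 and 59.8 TPM, of which 4 exceeded every vehicle library.

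The secreted factors were the most and the least abundant of the targets. Vegfa changed by 0.066 on the log2 scale on average with dapagliflozin (SE 0.084, 95% interval -0.10 to 0.24), an interval of -6.873% to 17.7%. The 4 genotypes gave 0.028, 0.14, 0.055 and 0.045, all close to 0. In Akita wild type, Vegfa ran from 221 to 361 TPM (median 299) with vehicle, and the treated libraries held 222, 290.0, 309, 314 and 410 TPM. Adm changed by -0.020 on average, with a wide interval of -0.42 to 0.38. In nondiabetic wild type it was 0.65 higher with the drug (95% interval -0.15 to 1.45), and in Akita wild type 0.44 lower as fitted (-0.44, 95% interval -1.28 to 0.39). The difference in Adm's drug effect between Akita and nondiabetic mice was -0.71 (95% interval -1.52 to 0.096, unadjusted p 0.0826), which did not pass.

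Bnip3 and Pdk1 stand for the mitochondrial and metabolic arm of the response. Bnip3 changed by -0.057 on average (95% interval -0.26 to 0.14), an interval of -16.5% to 10.55%. In Akita wild type its vehicle libraries held 90.7 to 173 TPM (median 124), and the treated ones held 82.8, 121, 132, 137 and 168 TPM. In Akita knockout they held 103 to 196 TPM (median 128) and 70.0 to 148 TPM (median 120). The 2 sets overlapped in both genotypes. Pdk1 changed by -0.030 on average (95% interval -0.41 to 0.35). Its libraries in nondiabetic knockout spread from 2.40 to 11.9 TPM with vehicle and from 3.32 to 18.3 TPM with the drug, so its precision was low.

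Ankrd37 and P4ha1 complete the targets. Ankrd37 reached 0.98 in Akita knockout (95% interval -0.020 to 1.97, unadjusted p 0.0546), where vehicle libraries held 0.403 to 1.56 TPM (median 0.842) and treated ones 1.21 to 3.89 TPM (median 2.92). There 5 of 6 treated libraries exceeded every vehicle library. The other 3 genotypes gave 0.19, -0.31 and -0.55, and the average was 0.078 (95% interval -0.43 to 0.58). Changes on this scale understate those of genes this low. P4ha1 changed by 0.032 on average (95% interval -0.18 to 0.24). Its highest value of all, 106 TPM, came from nondiabetic wild type with dapagliflozin, where the median was 46.8 TPM.

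**Figure D2:**
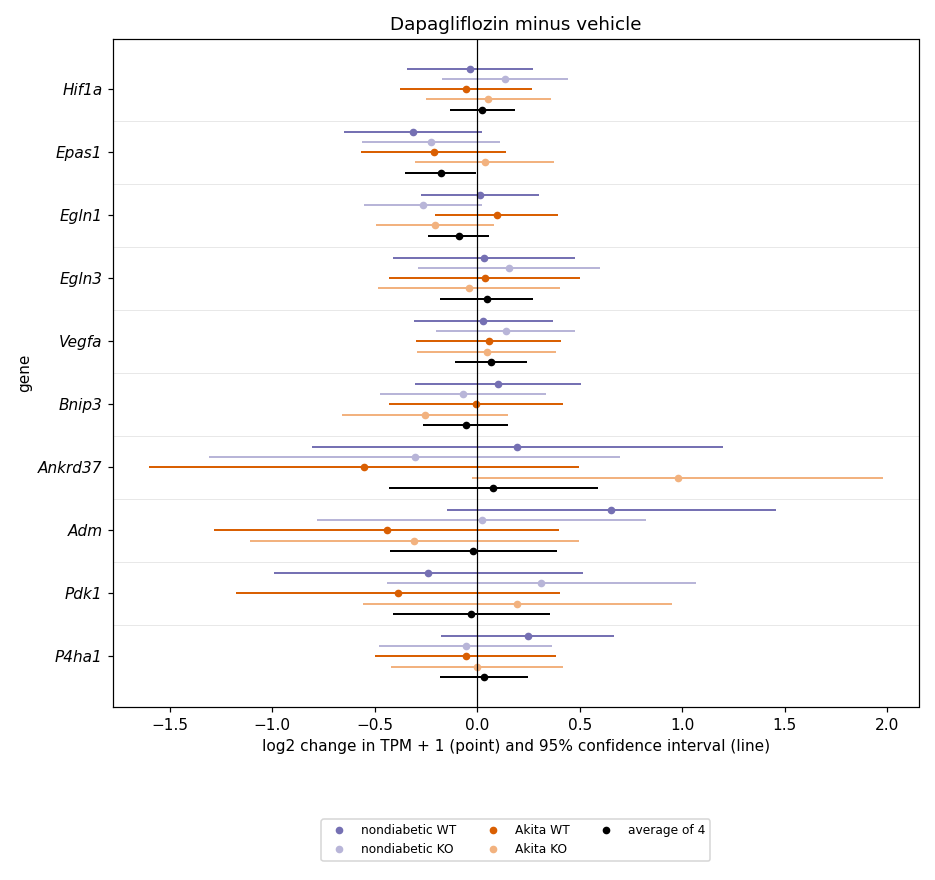
Change in each gene with dapagliflozin against vehicle, as the log2 difference in TPM + 1 (x axis) for the 10 genes (y axis) in 4 genotypes and their average (black); points are limma estimates and lines 95% confidence intervals. Apart from the average of Epas1 (-0.35 to -0.011), every interval includes 0, and the averages of Vegfa, Hif1a, Egln1 and Egln3 lie within 0.10 of it.

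No difference in the drug's effect by Sglt1 genotype or by diabetes passed the adjusted threshold for these 10 genes. The test of the difference between wild type and knockout called 0 of 10, against 0% of tested genes, and at an unadjusted p of 0.05 it took 1 of 10 (Egln1), against 3.97%. The test of the difference between Akita and nondiabetic mice called 0 of 10, against 0.00648% of tested genes, and at an unadjusted p of 0.05 it took 0 of 10, against 4.51%. For Vegfa the difference between genotypes was -0.049 (95% interval -0.39 to 0.29) and for Bnip3 0.21 (95% interval -0.19 to 0.62). Missing the threshold does not show that the genotypes responded alike.

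The lowest adjusted p of any of the 10 genes, 0.156 for Bnip3 by limma, came in the averaged diabetes comparison. Many other genes also differed there: 2 of the 10 were under an unadjusted p of 0.05, against 13.4% of tested genes. The knockout average and semaglutide also took 2 of 10 at that level, against 7.22% and 5.19%. Averaged over genotype and dapagliflozin, Bnip3 ran from 64.6 to 148 TPM (median 107) in the 24 nondiabetic libraries and from 70.0 to 196 TPM (median 121) in the 23 Akita libraries. The log2 difference was 0.30 (SE 0.10, 95% interval 0.095 to 0.50), a 1.23-fold higher level, with an unadjusted p of 0.0048 and an adjusted p of 0.156 by limma. In vehicle mice, all 6 Akita wild-type libraries lay above the nondiabetic median (127.7 ± 28.1 against 97.4 ± 26.5 TPM, SD, n = 6 each), and 5 of 6 Akita knockout libraries did so in theirs. Vegfa went the other way. It ran from 230.2 to 537 TPM (median 366) in nondiabetic and from 221 to 410 TPM (median 310.3) in Akita libraries, a log2 difference of -0.22 (95% interval -0.39 to -0.055, unadjusted p 0.0106, adjusted p 0.214 by limma). All 6 Akita wild-type vehicle libraries lay below the nondiabetic median for Vegfa. The 2 targets thus had opposite signs, and neither passed. Egln3 was 0.21 higher as fitted (95% interval -0.0093 to 0.44), and Hif1a and Epas1 differed by 0.093 and 0.076 with intervals that included 0.

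The rule called 0 of 10 in the averaged diabetes comparison, against 0.966% of tested genes (149), and 0 of 10 in wild-type vehicle mice, against 0.389% (60). In knockout vehicle mice it called 0 of 10, against 0%, and at an unadjusted p of 0.05 it took 0 of 10, against 1026 tested genes. At an unadjusted p of 0.05 it took 2 of 10 in the average, against 13.4% of tested genes, and 0 of 10 in wild-type vehicle mice, against 10.2%. The 60 genes called in wild-type vehicle mice comprised 52 higher and 8 lower. With TPM rescaled without mitochondrial genes 38 were called there, 22 higher and 16 lower. Markers of other cells also lay mostly on one side of 0 with diabetes. In the averaged comparison 12 of 12 endothelial markers were below 0 (median -0.20, 0 past the adjusted threshold), and so were 9 of 10 macrophage and dendritic cell markers (median -0.44, 0 past it). All 6 markers of the earlier proximal tubule (S1 and S2) were above 0 (median 0.070), and 1 passed, the glucose transporter gene Slc2a2 (0.67, adjusted p 0.0271 by limma), which also passed in 8 of 11 other fits and missed without Akita wild type with dapagliflozin replicate 1 (0.62, adjusted p 0.0540 by limma). In wild-type vehicle mice 11 of 12 endothelial markers were below 0 (median -0.31), and 1 passed, the von Willebrand factor gene Vwf (-1.53, adjusted p 0.0084 by limma), which also passed in 7 of 11 other fits and missed without nondiabetic wild type with vehicle replicate 2 (-1.33, adjusted p 0.0553 by limma). The part of these markers in the results was not tested. In wild-type vehicle mice the endothelial sum ran from 266 to 496 TPM without and from 229 to 374 TPM with diabetes, and the macrophage sum from 448 to 774 TPM and from 365 to 487 TPM. No list had a gene at 0 in all libraries. Over 11 other fits the difference ran from 0.23 to 0.37 for Bnip3 and from -0.28 to -0.17 for Vegfa. The highest adjusted p-values by limma, 0.717 and 0.707, came with the score of endothelial, stromal and macrophage markers in the fit. With the library number from the labels in the fit, Bnip3 passed (0.37, adjusted p 0.0237 by limma). Bnip3 reads in the 3712 bases overlapped by an antisense gene, Gm45507, cannot be told from reads of that gene. The use of strand in counting is not given in the sources used here.

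**Figure D3:**
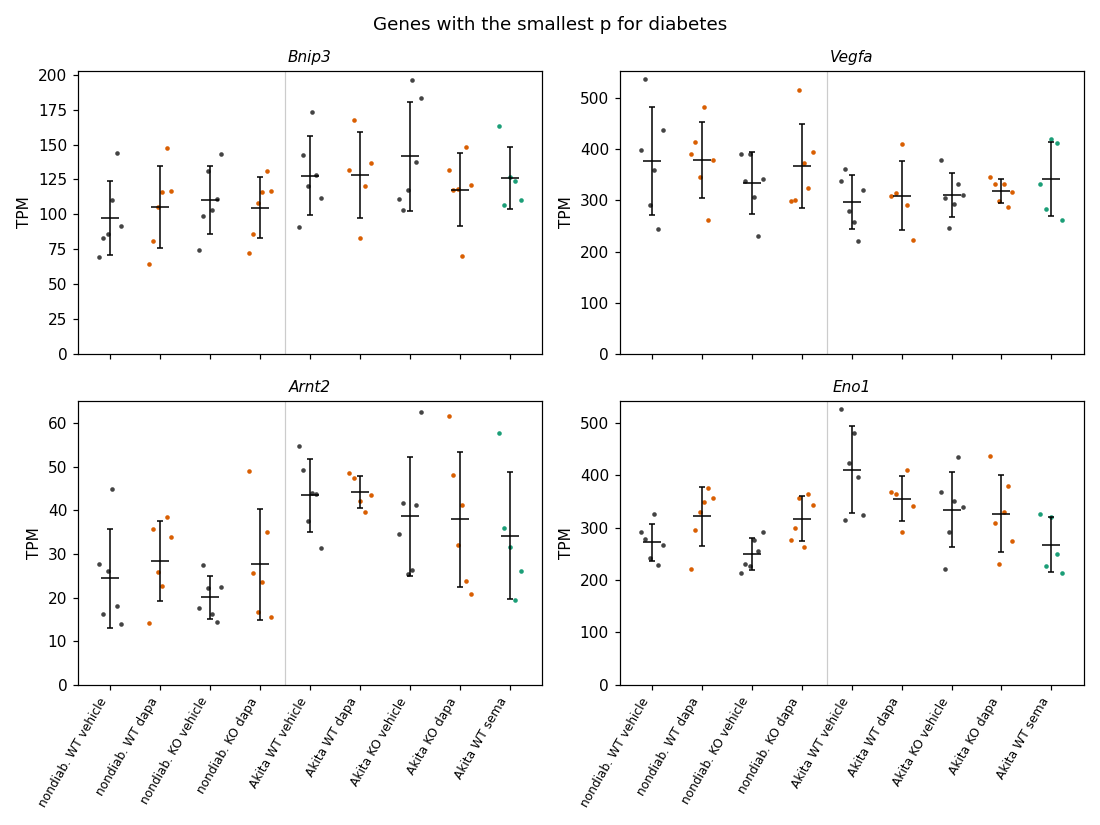
TPM (y axis) of Bnip3, Vegfa, Arnt2 and Eno1 in the 9 groups (x axis); points are libraries, bars are means and whiskers 1 SD, with nondiabetic groups to the left of the grey line. Among the 8 groups on vehicle or dapagliflozin, the Akita means lie above the nondiabetic means for Bnip3, Arnt2 and Eno1 and below them for Vegfa, with overlap between libraries, whereas in the semaglutide group the mean of Eno1 (267.5 TPM) is below the 272.4 TPM of nondiabetic wild type on vehicle and that of Vegfa (341.5 TPM) above the 333.2 TPM of nondiabetic knockout on vehicle.

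The Sglt1 knockout left the 10 genes without a call. In nondiabetic vehicle mice the rule took 0 of 10, against 0.0195% of tested genes, in Akita vehicle mice 0 of 10, against 0.0259%, and in the average over diabetes and dapagliflozin 0 of 10, against 0.0519% (8 genes). Of those 8 genes 2 were higher and 6 lower, and with TPM rescaled without mitochondrial genes 11 genes were called, 6 higher and 5 lower. At an unadjusted p of 0.05 the average took 2 of 10, Epas1 and Ankrd37, against 7.22% of tested genes. The nondiabetic and Akita vehicle comparisons took 0 and 1 (Ankrd37) of 10 at that level, against 802 and 478 tested genes. Epas1 ran from 46.4 to 113 TPM (median 60.5) in the 23 wild-type and from 34.3 to 80.7 TPM (median 56.0) in the 24 knockout libraries, a log2 difference of -0.18 (95% interval -0.35 to -0.0092, adjusted p 0.666 by limma). Ankrd37 differed by -0.51 (95% interval -1.01 to -0.0036, adjusted p 0.686 by limma). In Akita vehicle mice alone its wild-type libraries held 1.53 to 7.79 TPM (median 2.42) and its knockout libraries 0.403 to 1.56 TPM (median 0.842). There 5 of 6 knockout libraries lay below every wild-type library, for a log2 difference of -1.15 (95% interval -2.15 to -0.15, adjusted p 0.999 by limma). The averaged differences were -0.014 for Vegfa (95% interval -0.18 to 0.155) and 0.082 for Hif1a (95% interval -0.071 to 0.23). For Bnip3 the value was 0.055 (95% interval -0.15 to 0.26) and for Egln3 -0.018 (95% interval -0.24 to 0.20), so each interval included 0. Ankrd37 overlaps Lrp2bp and Ufsp2 on the opposite strand, so part of its low signal could not be assigned.

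Semaglutide, a glucose-lowering drug that is not an SGLT2 inhibitor, was compared with vehicle in Akita wild-type mice. The semaglutide libraries are numbered 88 to 99 in the labels and the vehicle libraries 1 to 82. Drug and library number therefore cannot be told apart in this comparison. The rule took 0 of 10 genes, against 0% of tested genes, and at an unadjusted p of 0.05 it took 2 of 10, against 5.19%. Ankrd37 was listed at 0, 0, 0, 1.66 and 2.53 TPM with semaglutide, against 1.53 to 7.79 TPM (median 2.42) with vehicle. The fitted difference was -1.41 on the log2 scale (95% interval -2.46 to -0.37), with an unadjusted p of 0.0090 and an adjusted p of 0.766 by limma. It ranged from -3.22 to -1.08 over the other fits, the first with a pseudocount of 0.1 TPM. The same vehicle libraries, which had the highest group mean of Ankrd37 (3.62 TPM), also served the knockout comparison in Akita vehicle mice. P4ha1 held 31.4, 31.6, 36.9, 37.0 and 38.8 TPM with semaglutide and 39.2 to 68.2 TPM (median 45.6) with vehicle. Here the 2 groups did not overlap, and the log2 difference was -0.45 (95% interval -0.88 to -0.0086, unadjusted p 0.0458, adjusted p 0.954 by limma). P4ha1 was the only member whose groups were separate in any of the 5 comparisons of a drug with vehicle. The share of all tested genes with separate groups was not computed, so the separation does not set P4ha1 apart from other genes. Of the markers of other cells, 10 of 12 endothelial (median 0.19) and 9 of 10 macrophage and dendritic cell markers (median 0.16) were above 0 with semaglutide, 0 of them past the adjusted threshold. The endothelial sum ran from 229 to 374 TPM with vehicle and from 308 to 410 TPM with semaglutide, and the macrophage sum from 365 to 487 TPM and from 348 to 603 TPM. Over the 52 libraries P4ha1 had r = -0.29 and rho = -0.30 with the endothelial score (adjusted permutation p 0.102 and 0.0860, within groups r = -0.33, and r = -0.31 without the 2 farthest libraries). The part of these cells in the semaglutide values was not tested. Vegfa was 0.20 higher as fitted (95% interval -0.15 to 0.55), with libraries at 262, 282, 332, 411 and 420 TPM, and Bnip3 (-0.0051) and Epas1 (-0.0095) were near 0.

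**Figure D4:**
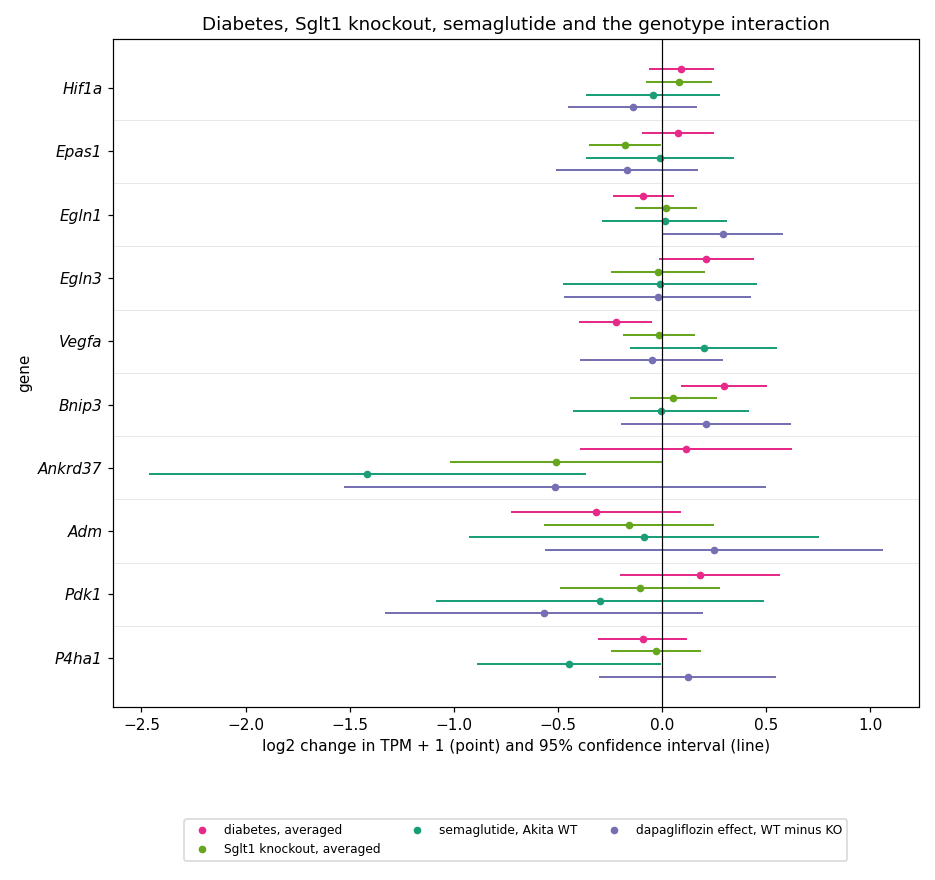
Log2 differences in TPM + 1 (x axis) for the 10 genes (y axis) with diabetes, Sglt1 knockout and semaglutide, and the difference in dapagliflozin effect between wild type and knockout; points are limma estimates and lines 95% confidence intervals. Bnip3 (0.30) and Vegfa (-0.22) lie on opposite sides of 0 with diabetes, and the widest intervals are those of Ankrd37 and Adm.

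Few genes of the wider pathway passed the test. Lists were drawn up for HIF partners and oxygen sensing (11 genes, all tested), glycolytic HIF targets (16 of 19 tested) and other HIF targets (23 of 29 tested). With dapagliflozin, 0 genes of the 3 lists passed in any genotype or in the average. In nondiabetic knockout mice all 16 glycolytic genes were above 0 (median 0.21, against -0.021 over all tested genes) with 0 called and 1, Eno1, at an unadjusted p under 0.05. In Akita wild type 5 of 16 were above 0 (median -0.036), and in Akita knockout 7 of 16 (median -0.019). In nondiabetic wild type, 9 of 16 were above 0 (median 0.078). Hk1, a hexokinase, had the smallest p there (log2 -1.14, adjusted p 0.394 by limma), followed by the glucose transporter gene Slc2a1 (-0.61, adjusted p 0.574 by limma). Of the 23 other targets, 1 had an unadjusted p under 0.05 in nondiabetic knockout, the lysine demethylase gene Kdm3a (0.44, adjusted p 0.913 by limma). In nondiabetic wild type 2 did, Loxl2 (-0.70, adjusted p 0.638 by limma) and Car9 (-1.04, adjusted p 0.677 by limma). For the difference in drug effect between Akita and nondiabetic mice 3 did, Kdm3a (-0.37), Car9 (1.17) and Fam162a (-0.85), with 0 called. The shares of tested genes at that level were 4.74%, 7.03% and 4.51%.

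Arnt2 and Eno1 rose with diabetes in the average. Arnt2, a neural relative of the HIF beta subunit Arnt, ran from 13.9 to 49.1 TPM (median 23.2) in nondiabetic and from 20.7 to 62.6 TPM (median 41.7) in Akita libraries. Its log2 difference was 0.73 (95% interval 0.45 to 1.00), 1.66-fold, with an adjusted p of 0.0014 by limma. In vehicle mice all 6 Akita libraries of each genotype lay above the nondiabetic median. It passed in all 47 fits that left out 1 library and in 10 of 11 other fits, the exception being the score of other cell types (0.66, adjusted p 0.0534 by limma). Arnt2 (chr7:84246278-84410176) is overlapped by an antisense gene, Gm30873. Eno1, the glycolytic enzyme enolase, ran from 213 to 375 TPM (median 285) in nondiabetic and from 221 to 526.1 TPM (median 351) in Akita libraries, a log2 difference of 0.29 (95% interval 0.13 to 0.44, adjusted p 0.049 by limma). It passed in 16 of 47 fits without 1 library and in 2 of 11 other fits, with adjusted p-values up to 0.433. A near-identical gene copy of Eno1 (chr4:150236721-150248879) could share its reads. In all, 1 of 11 partners, 1 of 16 glycolytic targets and 0 of 23 other targets were called in that comparison, against 0.966% of tested genes, and the medians of the 3 lists were 0.057, 0.15 and 0.054, against 0.027 over all tested genes. At an unadjusted p under 0.05 the same comparison took 8 of 16 glycolytic targets, 1 of 11 partners and 4 of 23 other targets, against 13.4% of tested genes. The 8 glycolytic genes were Eno1, Ldha, Tpi1, Pgk1, Aldoa, Gapdh and Pfkfb4, all higher as fitted (0.20 to 0.29), and Slc2a1, lower as fitted (-0.32). They are named here after their values were seen. In wild-type vehicle mice 7 of 16 glycolytic targets were at that level, 5 above and 2 below 0, against 10.2% of tested genes, and 0 of them were called. Of the uncalled glycolytic targets, Slc2a1 (-0.32, adjusted p 0.111 by limma) had the smallest p. Among the 23 other targets, heme oxygenase Hmox1 (0.50, adjusted p 0.128 by limma) had the smallest p. With semaglutide, Hmox1 (-1.05, adjusted p 0.564 by limma) and Eno1 (-0.62, adjusted p 0.357 by limma) had the smallest p of their lists. The diabetes and semaglutide comparisons share the Akita wild-type vehicle libraries, so their opposite signs are not independent. That group had the highest mean of all groups for Eno1 (411.2 TPM) and for Hmox1 (12.19 TPM). For Eno1, all 5 semaglutide libraries, at 213 to 326 TPM, lay below the vehicle median of 410.2 TPM. In the knockout average, the third prolyl hydroxylase gene Egln2 was 0.19 lower as fitted (-0.19, adjusted p 0.341 by limma), and 0 genes of the 3 lists were called.

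Although none of the 10 genes was called between groups, some of them varied together from library to library. Over the 45 pairs, with group means removed and 100000 permutations within groups, 3 pairs passed an adjusted p of 0.05. The share of pairs of other tested genes that would pass was not computed, so this count does not set the 10 genes apart. Egln3 and Bnip3, a sensor and a target, rose and fell together (Pearson r = 0.61, Spearman rho = 0.60, 52 libraries). The unadjusted permutation p of 1e-05 was the smallest these permutations can give (adjusted permutation p 0.00045), and r was 0.60 without the 2 libraries farthest from the median. Egln1 and Egln3 were also positively related (r = 0.50, rho = 0.46, adjusted permutation p 0.0219, and r = 0.50 without the 2 farthest). Egln3 and Pdk1, both HIF targets, were inversely related (r = -0.49, rho = -0.45, adjusted permutation p 0.0219, and r = -0.50 without the 2 farthest). Vegfa and Adm had r = 0.45 (adjusted permutation p 0.055) and rho = 0.50 (adjusted permutation p 0.0171). Of the 45 pairs, 23 had a positive r, so the 10 genes did not vary as one block.

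**Figure D5:**
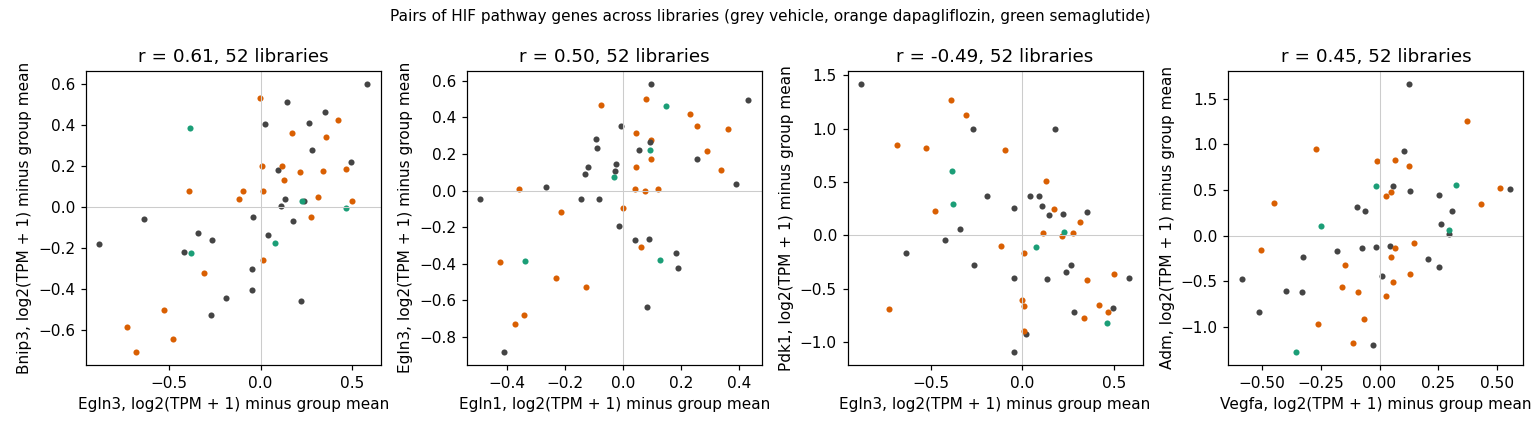
Pairs of genes across the 52 libraries, each axis giving log2(TPM + 1) minus the mean of the library's group, with vehicle in grey, dapagliflozin in orange and semaglutide in green. Egln3 rises with Bnip3 (r = 0.61) and Egln1 (0.50) and falls as Pdk1 rises (-0.49), and the treatments are mixed along each trend.

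Several of the 10 genes also varied with marker scores of other cell types. Of 70 relations between the 10 genes and the scores of 7 other cell types, 21 passed an adjusted p of 0.05 by Pearson's r and 17 by Spearman's rho. The share of all tested genes related to these scores was not computed, so these counts do not set the 10 genes apart. Unlike those of the pairs, these permutations ran freely over all 52 libraries, so their p-values include differences between groups. Bnip3 and Egln3 fell as endothelial markers rose (r = -0.48 and -0.46, rho = -0.48 and -0.43, adjusted permutation p 0.0027 and 0.0037 over 52 libraries) and as distal tubule and collecting duct markers rose (r = -0.44 and -0.52, rho = -0.36 and -0.50, adjusted permutation p 0.0086 and 0.0018). Within groups the endothelial relations were -0.42 and -0.41, and without the 2 libraries farthest from the median score they were -0.44 and -0.43. Pdk1 went the opposite way and rose with endothelial (r = 0.48, rho = 0.46, adjusted permutation p 0.0030, within groups 0.63) and thick ascending limb markers (r = 0.49, rho = 0.41, adjusted permutation p 0.0027, within groups 0.53). Without the 2 farthest libraries these were 0.51 and 0.47. Epas1, which is abundant in endothelium, had r = 0.32 with the endothelial score (adjusted permutation p 0.060) and rho = 0.39 (adjusted permutation p 0.026), and r was 0.28 without the 2 farthest. By r Epas1 passed with the stromal score (r = 0.36, rho = 0.22, adjusted permutation p 0.0392 and 0.251) and the macrophage score (r = -0.34, rho = -0.26, adjusted permutation p 0.0493 and 0.183). Without the 2 farthest libraries these were 0.19 and -0.16, so both rested on those libraries. With the S1 and S2 score, 5 genes passed by r. Pdk1 (r = 0.42, rho = 0.35), Adm (r = 0.39, rho = 0.38) and Vegfa (r = 0.38, rho = 0.32) rose with it, at adjusted permutation p-values of 0.0122, 0.0238 and 0.0265 for r and 0.0492, 0.0288 and 0.0836 for rho. Egln3 (r = -0.36, rho = -0.28) and Egln1 (r = -0.34, rho = -0.35) fell with it, at 0.0392 and 0.0493 for r and 0.133 and 0.0492 for rho. Without the 2 farthest libraries the 5 values of r were 0.41, 0.40, 0.40, -0.37 and -0.29. Bnip3 (r = 0.55) and Egln3 (r = 0.59) rose and Vegfa (r = -0.53) and Adm (r = -0.50) fell with a thin limb list, which holds Aqp1, a gene that the proximal tubule also expresses. Their rho values were 0.49, 0.52, -0.48 and -0.57, their adjusted permutation p-values at most 0.0018, and r without the 2 farthest 0.49, 0.51, -0.49 and -0.50. The part of cell makeup in the pairs was not tested.

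Genes outside the pathway that varied most like each member were also found, over the 52 libraries with group means removed. P4ha1 was nearest to Stip1 (r = 0.84) and Hsp90aa1 (0.76), a cochaperone and a heat-shock protein. Egln1 was nearest to the RNA demethylase gene Alkbh5 (0.82) and to Def8 (0.74). Egln3 was nearest to Ahcy (0.80), a methionine cycle enzyme, and Surf4 (0.78), and Bnip3 to Laptm4a (0.79) and Ran (0.77). For Pdk1 the nearest were Casz1 (0.80) and Cyfip2 (0.77). For Epas1 they were Rgs5 (0.58), a pericyte gene, and Gjc1 (0.58). Hif1a (Arfip1 0.65, Agk 0.63), Vegfa (Chd3 0.66, Ugt2b5 0.65), Adm (Bnc2 0.59, Slc51a 0.59) and Ankrd37 (Nol8 0.50, Krt10 0.49) had looser neighbours. None of the nearest genes was another of the 10.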

How the data were processed

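Laser-captured tubules were sequenced from 0.5 ng of total RNA with a stranded total RNA kit, per the labels' protocols. The authors deposited log10 TPM on build GRCm38, per the submitters' processing notes. Which aligner, annotation and scaling they used, and at what depth, is not given in the sources used here. The deposited TPM summed to 984393 to 2253870 per library, above 1e+06 in 51 of 52. The table's title says an outlier was removed, and 2 of 54 labelled samples have no column. Blank cells were taken as 0. The log2(TPM + 1) values of 15424 genes (mean TPM of 1 or more) were fitted over all 9 groups with limma 3.58.1 (trend and robust settings) in R 4.3.3, and p-values were Benjamini-Hochberg adjusted over all of them at 0.05. All 10 members passed the filter. Members and lists were chosen with earlier results of these data known. Besides the members, the text names list genes past the threshold and otherwise up to 3 per list and comparison with the smallest p, and for likeness the 2 genes with the highest r. Alternatives changed the pseudocount, filter, scaling, weights, samples and covariates. Fits were checked on simulated data. Positions and overlaps came from GENCODE vM21.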

Additional observations from a re-analysis of the deposited data

Results flagged for a closer look

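Single libraries stood apart from the rest of their group for 4 genes, by the gap between the highest library and its nearest neighbour relative to the group's range. Chance alone flags about 1 in 20 such sets where values are normally distributed, and 7 of the 108 sets screened were flagged. The screen used TPM without a log transform, so that rate need not hold here. Epas1 in nondiabetic knockout with dapagliflozin had 1 library at 80.74 TPM, with the next at 50.91 TPM. Ankrd37 had 1 library at 6.587 TPM in nondiabetic knockout with dapagliflozin, where the next was 1.486 TPM, and 1 at 9.465 TPM in Akita wild type with dapagliflozin, where the next was 1.957 TPM. Adm had 1 library at 6.246 TPM in nondiabetic wild type with vehicle (next 2.268 TPM), which was the highest of all libraries in the score of endothelial, stromal and macrophage markers, and 1 at 3.355 TPM in Akita knockout with vehicle (next 1.319 TPM). Pdk1 had 1 library at 19.08 TPM in nondiabetic wild type with vehicle (next 8.736 TPM), another library of the 3 highest in that score, and 1 at 12.96 TPM in nondiabetic wild type with dapagliflozin (next 6.44 TPM).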

How the results depend on the processing

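No paired analysis was possible because the labels give every library a number of its own, so replicate numbers do not link groups. Of 4950 member changes under other settings (3410 without 1 library, 1540 in 11 other fits), 4949 kept their side of the threshold and 1, Bnip3 with diabetes, newly passed with the library number as covariate, so 1 member was called there instead of 0. Of all these changes 315 altered sign, none of them past the threshold before or after. The number of tested genes called moved more; the cause was not tested. Rescaling without mitochondrial genes gave 0 for dapagliflozin in nondiabetic wild type and 0 for dapagliflozin by diabetes, and 38 for diabetes in wild-type vehicle and 72 in the average. It shifted the median of all genes by up to 0.22 on the log2 scale. Array weights gave 0 for dapagliflozin in nondiabetic wild type, 2 for dapagliflozin by diabetes, 8 for knockout in Akita vehicle, 19 for the knockout average and 12 for semaglutide. Fitting the compared groups alone gave 34 for diabetes in wild-type vehicle and 1 in knockout vehicle. The score of other cell types as covariate gave 32 and 28 for diabetes in wild-type vehicle and in the average, and the library number gave 143 and 304, with 2 for semaglutide. Chosen after seeing the data, the sum of TPM as covariate gave 0 for dapagliflozin by diabetes and 29 and 76 for the same diabetes comparisons, the percent of mitochondrial rRNA gave 0 for dapagliflozin by diabetes, and leaving out the 3 libraries highest in the other-cell score gave 1 for dapagliflozin in Akita wild type, 0 for dapagliflozin by diabetes, 78 for the diabetes average, 14 for the knockout average and 1 for semaglutide. Without 1 library at a time, members called stayed at 0 to 0 in all 14 comparisons. Genes called then ranged from 1 to 4 for dapagliflozin in nondiabetic wild type, 0 to 1 in Akita wild type and by diabetes, 39 to 148 for diabetes in wild-type vehicle, 97 to 204 in the average, 3 to 3, 3 to 7 and 8 to 10 for knockout in nondiabetic vehicle, Akita vehicle and the average, 0 to 3 for semaglutide, and 0 to 0 elsewhere. Depth is unknown, so counting noise in Ankrd37 and Adm cannot be separated from other spread.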
